A study of Mus musculus with 2 samples.

Results

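SATB1, CTCF, the cohesin complex with its loader, and topoisomerase II beta are proteins that shape how chromatin is folded in the nucleus, and the expression of their genes was examined in CD4 and CD8 double-positive (DP) thymocytes of WT mice and in a library labelled Cxxc1-deficient. The genes were taken by symbol and number 9 of the 21041 genes in the deposited RNA-seq table: *Satb1*, *Ctcf*, *Smc1a*, *Smc3*, *Rad21*, *Stag1*, *Stag2*, *Nipbl* and *Top2b*. All 9 were found. The series holds 1 library of WT DP thymocytes and 1 labelled as Cxxc1-deficient DP thymocytes, both from young animals on a C57BL/6 background. WT mice carry *Cxxc1* alleles flanked by loxP sites (fl/fl) and no Cre. In the deficient mice of the study, the same alleles are combined with Cre under the human *CD2* promoter, which acts from early thymocyte stages and also in other immune cells, and the deleted exons leave a premature stop. The genotype label of the deficient library reads Cxxc1+/- instead, so the library was assigned by its title. The targeted gene, *Cxxc1*, had a value of 91 in WT and 50 in the other library, which is 54.9% of WT and a log2 ratio of -0.86. Under 4 other scalings of the libraries, its log2 ratio was -0.83, -0.48, -0.30 and, with medians equalised over genes of mean 100 or more, 0.13. The value of *Cxxc1* thus does not bear out the label by itself, and the library is called by its label only. Both values lie within the span of markers of cells other than thymocytes, whose highest were 119 and 66, so the ratio is uncertain. In DP cells of its deficient mice, the paper reports hardly any *Cxxc1* mRNA by quantitative PCR. It also reports loss of the CXXC1 protein there by western blot. A value per gene does not separate the deleted exons from the others. How many mice went into each library is not given in the sources used here.

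Cohesin is a ring of SMC1A, SMC3 and RAD21 that is completed by STAG1 or STAG2 and put onto DNA by NIPBL. The ring extrudes loops of chromatin, which stop where CTCF is bound to its sites, and so sets which enhancers and promoters lie close together. In DP thymocytes, cohesin and CTCF are known for their part in the folding and rearrangement of the T-cell receptor alpha locus. SATB1 is an abundant thymocyte protein that binds AT-rich DNA and brings distant elements together, and topoisomerase II beta, which relieves torsion by cutting both DNA strands, is often found beside CTCF and cohesin at the base of loops. Cxxc1 binds unmethylated CpG dinucleotides and is a subunit of the Setd1 complex that trimethylates histone H3 at lysine 4.

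All 9 genes had a lower value in the library labelled Cxxc1-deficient, and all 9 were at least 2-fold lower. The reduction ran from 2.21-fold for *Nipbl* to 4.08-fold for *Satb1*, with a median log2 ratio (Cxxc1-deficient to WT) of -1.45. Over the 20125 genes above 0 in at least 1 library, 59.9% were lower, 17.4% were at least 2-fold lower and the median log2 ratio was -0.20. The median value of all genes was 36 in both libraries, and the 9 genes had at least 321 in WT and at least 121 in the library labelled Cxxc1-deficient. Among the 2472 genes whose mean over the 2 libraries was 100 or more, 56.8% were at least 2-fold lower and the median log2 ratio was -1.08. The count of 9 of 9 therefore stands beside a shift that most well-expressed genes share, and each gene is set beside genes of its own level in what follows. With 1 library per genotype there is no replicate check and no p-value. The deposited values are rounded and hold no read counts, so the depth and the counting error are unknown. Rounding alone widens a log2 ratio of these genes by at most 0.016. The study named *Satb1* and *Ctcf* among its Cxxc1-bound genes with a change of at least 2-fold in these same libraries, so the reduction of these 2 genes is not independent of that choice.

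**Figure D1:**
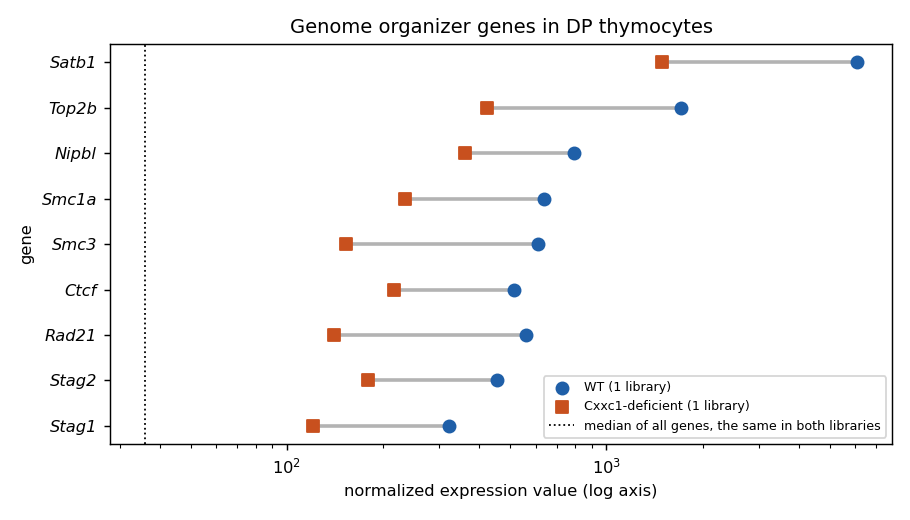
Normalized expression values (log axis) of the 9 genes in the WT library (circles) and the library labelled Cxxc1-deficient (squares), in order of their mean, with the median of all genes as a dotted line at 36. Every square lies to the left of its circle and to the right of the dotted line, from 121 for *Stag1* to 1492 for *Satb1*.

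*Satb1*, on the minus strand of chromosome 17 of mm9 (GENCODE vM1, 51875512 to 51972615), had a value of 6080 in WT versus 1492 in the library labelled Cxxc1-deficient. It ranked 4 in the WT library and 5 in the library labelled Cxxc1-deficient among all genes of the table, near the top of both, while its value was 24.5% of WT. The log2 ratio was -2.03. Of the 39 genes with a mean of 1000 and over, 87.2% were at least 2-fold lower, the median log2 ratio was -1.81, and 14 genes including *Satb1* had a ratio at least as low. *Satb1* alone made up 0.392% of the summed values of the WT library and 0.152% of those of the library labelled Cxxc1-deficient.

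*Top2b*, which encodes topoisomerase II beta, the form of the enzyme that non-dividing cells use, lies on the plus strand of chromosome 14 (17197693 to 17263301). Its value was 1708 in WT versus 424 in the library labelled Cxxc1-deficient, a 4.03-fold reduction and a log2 ratio of -2.01. It belongs to the same range of abundant genes as *Satb1*, and 15 of the 39 had a ratio at least as low. The ratios of *Satb1* and *Top2b* differed by 0.017 on the log2 scale, and both lay between the quartiles of the genes of their level, which were -2.19 and -1.23.

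The ring genes of cohesin were not reduced to the same degree. *Smc3*, an ATPase arm of the ring, lies on the plus strand of chromosome 19 (53674886 to 53720323) and had 610 in WT versus 153 in the library labelled Cxxc1-deficient, a 3.99-fold reduction. *Rad21*, the kleisin that closes the ring and is cut by separase when sister chromatids part, lies on the minus strand of chromosome 15 (51794151 to 51823306) and had 561 in WT versus 140 in the library labelled Cxxc1-deficient, a 4.01-fold reduction. *Smc1a*, the other ATPase arm, lies on the plus strand of the X chromosome (148450971 to 148497237) and had 640 in WT versus 235 in the library labelled Cxxc1-deficient, a 2.72-fold reduction. The 3 genes had similar values in WT, whereas *Smc1a* stood above the other two in the library labelled Cxxc1-deficient.

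Genes with a mean of 300 to 1000 give the setting for these ratios. There are 367 of them, 76.6% were at least 2-fold lower, and their median log2 ratio was -1.43 with quartiles of -1.82 and -1.06. The log2 ratios of *Rad21* (-2.00) and *Smc3* (-2.00) lay below the lower quartile, with 56 and 58 genes of the 367 at least as low. That of *Smc1a* (-1.45) lay at the median, with 178 genes at least as low. The difference of 0.55 between *Smc3* and *Smc1a* is smaller than the distance of 0.76 between the quartiles, so genes of this level commonly differ from each other by as much.

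*Stag1* and *Stag2* encode the alternative subunits that bind RAD21 and contact CTCF. *Stag1*, on the plus strand of chromosome 9 (100498217 to 100858964), had the lowest value of the 9 genes in both libraries, with 321 in WT versus 121 in the library labelled Cxxc1-deficient, a 2.65-fold reduction. *Stag2*, on the plus strand of the X chromosome (39502494 to 39630362), had 456 in WT versus 179 in the library labelled Cxxc1-deficient, a 2.55-fold reduction. The log2 ratios of -1.41 and -1.35 differed by 0.058, so the balance between the alternative subunits was almost the same in both libraries. The mean of *Stag1* falls in the range of 100 to 300, where 52.8% of 2066 genes were at least 2-fold lower, the median log2 ratio was -1.03 and 479 genes were at least as low as *Stag1*. For *Stag2*, 208 of the 367 genes of its range were at least as low.

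*Nipbl*, the loader that also stimulates loop extrusion, lies on the minus strand of chromosome 15 (8241225 to 8394463). Its value was 794 in WT versus 360 in the library labelled Cxxc1-deficient, and the 2.21-fold reduction was the smallest of the 9. *Ctcf*, the zinc finger protein at loop anchors, lies on the plus strand of chromosome 8 (108160468 to 108206822) and had 513 in WT versus 217 in the library labelled Cxxc1-deficient, a 2.36-fold reduction. Both were reduced less than the median of their range, with log2 ratios of -1.14 for *Nipbl* and -1.24 for *Ctcf* beside -1.43. In the range, 258 of 367 genes were at least as low as *Nipbl* and 230 were at least as low as *Ctcf*. No annotated gene of GENCODE vM1 overlaps an exon of any of the 9 genes, so their values do not share reads with an overlapping or antisense gene of that annotation.

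**Figure D2:**
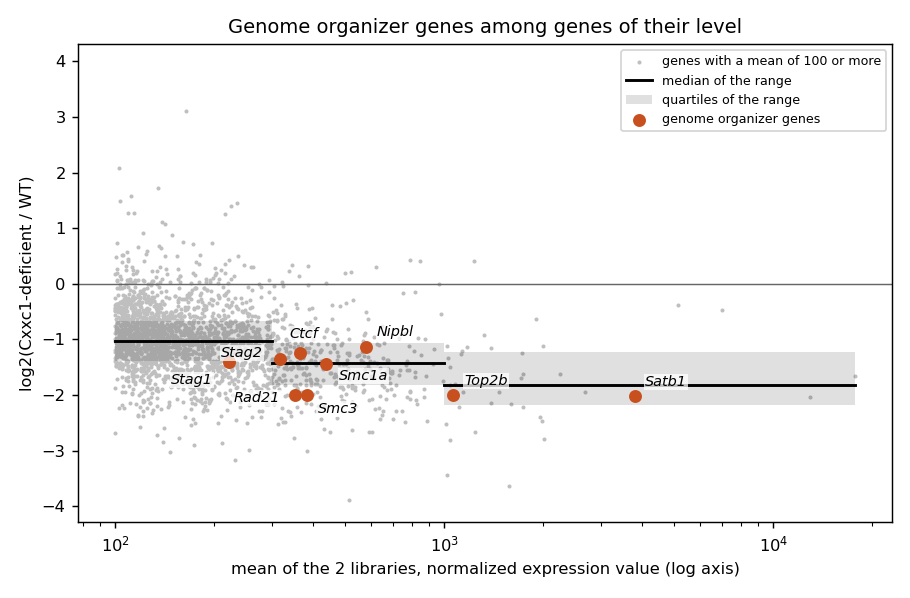
The log2 ratio of Cxxc1-deficient to WT against the mean of the 2 libraries (log axis) for genes with a mean of 100 or more (grey), with the median (black line) and the quartiles (band) in the ranges of 100 to 300, 300 to 1000 and 1000 and over. The 9 genes (orange) all lie below 0, with *Rad21* and *Smc3* under the band of their range and *Nipbl* and *Ctcf* above the median of theirs.

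Sorted by ratio, the 9 genes formed a group of 4 (*Satb1*, *Top2b*, *Rad21* and *Smc3*) with reductions of 3.99-fold to 4.08-fold and a group of 5 (*Smc1a*, *Stag1*, *Stag2*, *Ctcf* and *Nipbl*) with reductions of 2.21-fold to 2.72-fold. The grouping was made after the values were seen. A distance of 0.55 on the log2 scale separates the groups, and the group of 4 spans 0.032. *Satb1* and *Top2b* are the most abundant of the 9, and the median log2 ratio of all genes was lower at higher levels (-1.03, -1.43 and -1.81 in the 3 ranges). *Rad21* and *Smc3* are in the same range as 4 of the 5 genes of the other group. The part of level in the grouping was not tested. Relative to the median of their own range, the log2 ratios were -0.57 for both *Rad21* and *Smc3*, -0.38 for *Stag1*, -0.21 for *Satb1*, -0.20 for *Top2b*, -0.016 for *Smc1a*, 0.080 for *Stag2*, 0.19 for *Ctcf* and 0.29 for *Nipbl*. On this scale *Satb1* and *Top2b*, which had the largest reductions, stood closer to the median of their range than *Stag1* did to that of its own. The ranges are wide, and *Stag1* has a mean of 221 in the range of 100 to 300. Its log2 ratio of -1.41 is close to the median of the next range, -1.43. The part of a gene's place within its range in these distances was not tested.

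Comparisons between genes of the same library do not depend on how the libraries were scaled, so they show which differences among the 9 genes hold under any single factor per library. The sources do not say whether the values were divided by transcript length, and only the change of such a ratio between the libraries is read here. The ratio of *Smc3* to *Smc1a* was 0.953 in WT versus 0.651 in the library labelled Cxxc1-deficient. The ratio of *Rad21* to *Smc3* was 0.920 in WT versus 0.915 in the library labelled Cxxc1-deficient. Of the ring genes, *Rad21* and *Smc3* had nearly the same ratio to each other in both libraries, and *Smc1a* was the one that differed. The ratio of *Stag2* to *Stag1* was 1.42 in WT versus 1.48 in the library labelled Cxxc1-deficient. The ratio of the loader *Nipbl* to *Rad21* was 1.42 in WT versus 2.57 in the library labelled Cxxc1-deficient. The ratio of *Satb1* to *Ctcf* went from 11.9 to 6.88, while that of *Satb1* to *Top2b* was 3.56 and 3.52. Whether these changes exceed the variation between mice cannot be read from 1 library per genotype.

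The size of every reduction, but not the order of the genes, depended on the scaling. All 9 genes stayed lower in the library labelled Cxxc1-deficient under each of 4 other scalings. The number at least 2-fold lower was 9 when medians were equalised over all genes above 0 in both, 6 when 75th percentiles were equalised, 4 when sums were equalised leaving out the 100 genes of highest mean, and 3 when medians were equalised over genes of mean 100 or more. Over all genes, 16.0%, 8.86%, 6.54% and 3.51% were at least 2-fold lower under these scalings, in the same order. The median log2 ratio of genes with a mean of 100 or more was -1.05, -0.70, -0.52 and -0.088. Under the last scaling, which moves the median of all genes by 0.997, *Satb1* had a log2 ratio of -1.03 and *Nipbl* had -0.14.

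**Figure D3:**
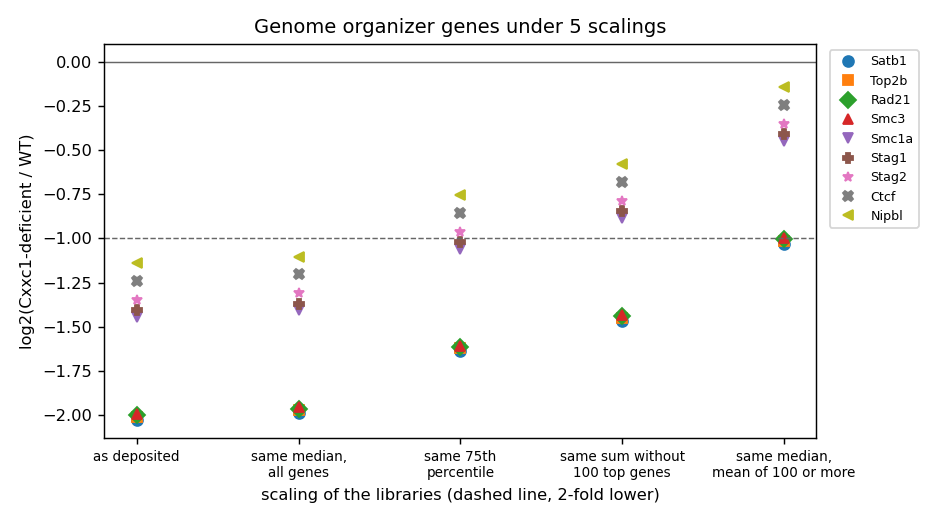
The log2 ratio of Cxxc1-deficient to WT of each gene with the values as deposited and under 4 scalings of the libraries, with the 2-fold threshold as a dashed line. *Satb1*, *Top2b*, *Rad21* and *Smc3* are the lowest under every scaling, from -2.03 to -2.00 as deposited and with *Satb1* at -1.03 under the last one, and the other 5 genes lie between them and 0.

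The promoters of the genes were examined for CpG, the dinucleotide that the CXXC domain of Cxxc1 binds. The RefSeq table of promoter windows (GRCm38.p6, 250 bases before to 50 bases after each start) holds 10 windows of 6 of the 9 genes, and *Rad21*, *Stag2* and *Nipbl* have no entry in it. The stretches upstream of the first annotated start are shown for the genes whose window reaches beyond it, since they let CpG-rich and CpG-poor promoters of genes with like and unlike reductions be compared. Each is written 5′ to 3′ on the strand of the gene, with every CpG in capitals. The stretches are chr17:51833291-51833540 (minus strand) for *Satb1*, chr14:16364956-16365205 (plus strand) for *Top2b*, chr19:53600146-53600395 (plus strand) for *Smc3*, chrX:152016178-152016427 (plus strand) for *Smc1a* and chr8:105636288-105636473 (plus strand) for *Ctcf*.
Satb1: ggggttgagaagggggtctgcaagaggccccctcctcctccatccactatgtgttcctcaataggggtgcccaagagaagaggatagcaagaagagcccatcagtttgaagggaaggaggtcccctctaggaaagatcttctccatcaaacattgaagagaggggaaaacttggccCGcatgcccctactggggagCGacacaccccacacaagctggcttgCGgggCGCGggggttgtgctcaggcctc
Top2b: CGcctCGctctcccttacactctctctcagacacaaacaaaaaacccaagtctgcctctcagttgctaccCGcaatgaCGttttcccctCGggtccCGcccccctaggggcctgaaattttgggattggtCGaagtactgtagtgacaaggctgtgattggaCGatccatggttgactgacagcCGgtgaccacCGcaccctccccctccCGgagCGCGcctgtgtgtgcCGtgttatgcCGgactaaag
Smc3: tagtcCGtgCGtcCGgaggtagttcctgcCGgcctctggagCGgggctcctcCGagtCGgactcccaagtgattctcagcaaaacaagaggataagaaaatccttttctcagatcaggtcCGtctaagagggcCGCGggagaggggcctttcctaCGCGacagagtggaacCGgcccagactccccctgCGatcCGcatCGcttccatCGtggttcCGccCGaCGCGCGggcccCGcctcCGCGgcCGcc
Smc1a: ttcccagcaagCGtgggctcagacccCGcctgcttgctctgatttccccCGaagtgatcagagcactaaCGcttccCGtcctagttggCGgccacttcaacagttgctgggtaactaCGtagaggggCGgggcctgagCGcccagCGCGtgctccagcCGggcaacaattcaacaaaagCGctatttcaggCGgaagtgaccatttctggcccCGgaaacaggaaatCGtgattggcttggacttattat
Ctcf: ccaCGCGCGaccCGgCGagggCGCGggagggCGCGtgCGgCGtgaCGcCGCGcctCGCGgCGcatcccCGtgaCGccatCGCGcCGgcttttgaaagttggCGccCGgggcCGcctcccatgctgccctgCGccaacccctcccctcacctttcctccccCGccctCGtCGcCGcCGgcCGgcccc

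*Ctcf* and *Stag1* had the most CpG among the single-window genes, with 47 and 43 in their windows of 300 bases, counts that 1.44% and 2.61% of all 32851 windows reach. *Smc3* had 32 (reached by 9.52%), *Smc1a* 23 (21.5%) and *Top2b* 18 (29.7%). *Satb1* has 5 annotated starts, whose windows held from 3 to 45 CpG. The window of its first start held 8, and the CpG-rich window with 45 belongs to the next start, within the gene. Windows of genes with a mean of 100 or more had a median of 23 CpG with quartiles of 14 and 32, against a median of 7 over all windows, so the counts of *Smc1a*, *Smc3* and *Top2b* are ordinary for genes of this expression. The reductions were 2.36-fold for *Ctcf* (47 CpG), 2.65-fold for *Stag1* (43), 3.99-fold for *Smc3* (32), 2.72-fold for *Smc1a* (23) and 4.03-fold for *Top2b* (18). *Satb1*, with from 3 to 45 CpG in its windows, was reduced 4.08-fold. The part of CpG content in the reductions was not tested. The CpG counts describe the letters of the windows and not the binding of Cxxc1.

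Genes that work with the 9 were followed in a list of cohesin regulators, meiotic cohesin, condensin, SMC5/6, partners and the paralogue of CTCF, topoisomerases and proteins of the nuclear lamina and matrix. The list has 51 genes in the table, of which 50 were above 0 in at least 1 library. Of these, 18 were at least 2-fold lower and 2 were at least 2-fold higher, beside 17.4% lower and 5.89% higher over all genes, and the median log2 ratio was -0.62. Of the 17 genes with a mean of 100 or more, 14 were at least 2-fold lower, beside 56.8% of all genes of that level. Their median log2 ratio was -1.44, beside -1.45 for the 9 genes and -1.08 for all genes with a mean of 100 or more.

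Among the cohesin regulators, *Wapal*, whose protein releases cohesin from DNA, had 1127 in WT versus 281 in the library labelled Cxxc1-deficient, a log2 ratio of -2.00. *Esco1*, which acetylates SMC3 and protects the ring from release, had 327 and 106 (log2 ratio -1.63). *Pds5b*, which binds the ring together with WAPL, had 221 and 104 (log2 ratio -1.09), and its paralogue *Pds5a* had 277 and 163 (log2 ratio -0.77). *Mau2*, the partner of NIPBL in the loader, had 132 and 86, a log2 ratio of -0.62. *Mau2* and *Pds5a* were thus the least reduced of the cohesin genes with a mean of 100 or more, and *Wapal* was reduced as much as *Rad21* and *Smc3*. The ratio of *Wapal* to *Nipbl* within a library was 1.42 in WT versus 0.781 in the library labelled Cxxc1-deficient. Of the 12 regulators, 3 were at least 2-fold lower and 1 was at least 2-fold higher, beside 17.4% and 5.89% of all genes. The latter was *Cdca5*, which encodes sororin, a protein that holds sister chromatids together, with 26 in WT versus 57 in the library labelled Cxxc1-deficient. Unrelated cell-type markers show values of this size, so the difference is uncertain.

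Relatives of the 9 genes used in other cells lay near the median of all genes. The 4 genes of meiotic cohesin had values from 15 to 29 in WT versus from 16 to 34 in the library labelled Cxxc1-deficient, and *Rad21l*, with 15 and 34, was at least 2-fold higher. *Ctcfl*, the paralogue of *Ctcf* known from the testis, had 34 and 15. Differences between values this close to the median of 36 are uncertain, as unrelated cell-type markers show values of the same size.

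The 4 partners of *Ctcf* were at least 2-fold lower, as were 52.8% of all genes with a mean of 100 to 300, the range of *Yy1*, *Maz* and *Ldb1*. *Yy1*, which links enhancers and promoters, had 302 in WT versus 132 in the library labelled Cxxc1-deficient, *Maz*, which binds near CTCF sites, had 253 and 105, and *Ldb1*, which joins distant elements by forming dimers, had 321 and 118. *Zfp143*, a factor of promoters that contact CTCF sites, had 97 and 48, which is 2.02-fold lower. The log2 ratios of these 4 genes ran from -1.44 for *Ldb1* to -1.01 for *Zfp143*, on both sides of that of *Ctcf* (-1.24).

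Of the topoisomerases, *Top1*, which cuts a single strand, had 617 in WT versus 158 in the library labelled Cxxc1-deficient, a log2 ratio of -1.97 that was close to that of *Top2b*. *Top2a*, the form used by dividing cells, had 103 and 78 (log2 ratio -0.40). The ratio of *Top2a* to *Top2b* within a library was 0.0603 in WT versus 0.184 in the library labelled Cxxc1-deficient. Of the condensin genes, *Smc4*, an ATPase of the complex that compacts mitotic chromosomes, stood apart with 2606 and 809 (log2 ratio -1.69), whereas the other 7 had values from 21 to 111 in WT. *Smc5* had 301 and 118, and its partner *Smc6*, in the complex that acts in DNA repair, had 206 and 120.

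Genes of the nuclear lamina and matrix had the lowest median of the list, at -1.80, with 7 of the 9 above 0 at least 2-fold lower. Over all genes, 17.4% were at least 2-fold lower. The share was 76.6% in the range of 300 to 1000, which holds *Hnrnpu* and *Lbr*. It was 52.8% in the range of 100 to 300, which holds *Lmnb1*, *Matr3* and *Hmgb2*. *Hnrnpu*, which encodes an RNA-binding matrix protein, had 1348 in WT versus 301 in the library labelled Cxxc1-deficient (log2 ratio -2.16). *Lmnb1*, encoding lamin B1, had 197 and 45 (log2 ratio -2.13), and *Lbr*, encoding the lamin B receptor, had 610 and 179 (log2 ratio -1.77). *Matr3* had 448 and 125, *Safb* had 155 and 38, *Safb2* had 115 and 33, and *Hmgb2* had 152 and 56. *Hmgb1*, encoding an abundant chromatin protein, was listed at 0 in both libraries. Only uniquely mapped reads entered the values, a rule that can undercount genes with near-identical copies in the genome. Whether this bears on *Hmgb1* was not tested.

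**Figure D4:**
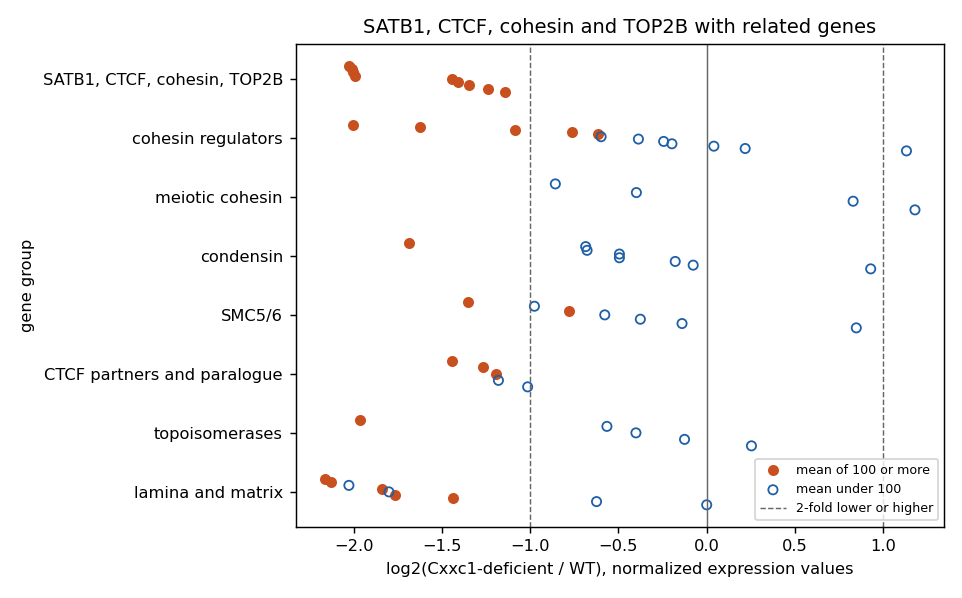
The log2 ratio of Cxxc1-deficient to WT of the 9 genes (top) and of the related genes by group, 1 point per gene, filled where the mean of the 2 libraries is 100 or more and open where it is lower. Filled points all lie left of 0, from -2.16 for *Hnrnpu* to -0.62 for *Mau2*, and the points right of 0 are all open.

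Genes that SATB1 is known to control in T cells were set beside it. *Rag1* and *Rag2*, which encode the recombinase of T-cell receptor genes and whose shared regulatory region depends on SATB1, had 20778 and 1219 in WT versus 5058 and 405 in the library labelled Cxxc1-deficient, with log2 ratios of -2.04 and -1.59. *Cd8a* and *Cd8b1*, the CD8 chains, had log2 ratios of -2.79 and -2.22. *Il2ra*, the alpha chain of the interleukin-2 receptor, which SATB1 is known to repress in thymocytes, had 63 in WT versus 207 in the library labelled Cxxc1-deficient, a log2 ratio of 1.72. *Zbtb7b*, *Runx3* and *Foxp3*, genes of later or other T-cell stages, had values from 38 to 46 in WT versus from 20 to 73 in the library labelled Cxxc1-deficient. Of the 8 genes, 5 were at least 2-fold lower and 1 was at least 2-fold higher, beside 17.4% and 5.89% of all genes. One of the 5 is *Foxp3*, whose values of 40 and 20 are close to the median of all genes (36), so its difference is uncertain. The study named *Cd8a* too among its Cxxc1-bound genes with a change of at least 2-fold in these same libraries. *Rag1*, *Cd8a* and *Cd8b1* belong to the range of 1000 and over, where 87.2% of all genes were at least 2-fold lower, and *Rag2* to that of 300 to 1000, where 76.6% were.

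The library labelled Cxxc1-deficient differed from WT in its thymocyte markers, some of which belong to the preceding list. *Rag1*, *Rag2*, *Cd8a*, *Cd8b1* and *Il2ra* are in both lists, so their values are not a separate observation. The part of SATB1 and the part of thymocyte stage in these values were not tested. The 7 markers of DP thymocytes were all present in both libraries and all at least 2-fold lower in the library labelled Cxxc1-deficient. *Rag1*, *Cd8a*, *Cd8b1*, *Themis* and *Dntt* belong to the range of 1000 and over, where 87.2% of all genes were at least 2-fold lower. *Rag2* belongs to that of 300 to 1000, where 76.6% were, and *Cd1d1* to that of 100 to 300, where 52.8% were. The 7 markers had a summed value of 32426 in WT versus 7395 in the library labelled Cxxc1-deficient. Their single values ran from 183 to 20778 and from 69 to 5058. The 3 markers of the earlier double-negative stage summed to 126 in WT versus 295 in the library labelled Cxxc1-deficient, mainly through *Il2ra*. Of the others, *Hes1* had 28 and 52, and *Kit* had 35 and 36. For mature single-positive thymocytes, the markers *Ccr7*, *S1pr1* and *Klf2* summed to 95 in WT versus 112 in the library labelled Cxxc1-deficient, and each was close to the median of all genes. The 20 markers of B cells, erythroid cells, macrophages and dendritic cells, epithelium and stroma had values of at most 119 in WT versus 66 in the library labelled Cxxc1-deficient, the highest being *Pecam1*, with *Hba-a1* at 0 in both, and summed to 533 and 468. Fewer cells of a type and less RNA per cell cannot be told apart in such samples, and the part of the thymocyte markers in the lower values of the 9 genes was not tested.

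The 9 genes had from 24.5% of WT (*Satb1*) to 45.3% (*Nipbl*), all below the share of 54.9% for *Cxxc1*. The values of *Cxxc1*, 91 and 50, are far lower than most of theirs and within the span of unrelated cell-type markers. Its share is therefore uncertain and not on the same footing as those of the 9 genes. The libraries also differed in Y-linked genes: of 15 in the table, the WT library had 0 above 0 and the library labelled Cxxc1-deficient had 7. *Xist*, the RNA of the inactive X chromosome, was abundant in both, with 2419 in WT versus 1021 in the library labelled Cxxc1-deficient. *Smc1a* and *Stag2* are X-linked, and the sex of the mice is not given in the sources used here. The 99 X-linked genes with a mean of 100 or more had a median log2 ratio of -1.24, and the 2241 autosomal ones had -1.09, beside -1.45 for *Smc1a* and -1.35 for *Stag2*. The part of sex in these values was not tested.

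The genes most like *Satb1* and *Ctcf* in both libraries were found by their distance in log2 values over the 2 libraries. Nearest to *Satb1* were *Ptprc*, *Trp53inp1*, *Cd4*, *Cd3e* and *Xist*, at distances from 0.68 to 1.44, so the closest gene was farther from it than any of the 5 was from *Ctcf*. *Ptprc*, which encodes the phosphatase CD45, had 4239 in WT versus 1101 in the library labelled Cxxc1-deficient. Nearest to *Ctcf* were *Zfp62*, *Lnpep*, *Jak1*, *Ccpg1* and *Kpna4*, all within 0.071, with values from 494 to 532 in WT versus from 210 to 226 in the library labelled Cxxc1-deficient. With 2 libraries, this likeness covers a level and a single ratio.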

How the data were processed

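Total RNA of DP thymocytes was made into mRNA libraries and sequenced on an Illumina HiSeq by the authors. Reads were mapped to mm9, those with a unique position were kept, and gene values came from the Partek Genomic Suite; the submitters' processing notes also name CASAVA 1.8.2 and Bowtie 1.0.1. Values were deposited as a score, meaning a normalized expression value for each gene and library that the authors rounded to integers, and its unit is not given in the sources used here. The WT library sums to 1551994 and the library labelled Cxxc1-deficient to 981677.

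Each value was raised to at least 1, log2 ratios of Cxxc1-deficient to WT were computed, and genes past 2-fold were counted. Medians and shares were taken over all genes above 0 in at least 1 library and by range of mean value. With 1 library per genotype no test was run. The 9 genes, the lists and the rule for named genes (the 9 genes, *Cxxc1*, listed genes with a mean of 100 or more or past 2-fold, and the 5 genes nearest to *Satb1* and to *Ctcf*) were chosen with earlier results of these data known. Any other gene was picked with its values in view. Some genes of the lists are not reported here and were left out of the counts. Gene coordinates came from GENCODE vM1 (NCBIM37, which is mm9). Promoter windows came from RefSeq on GRCm38.p6. The alternatives were 4 scalings of the libraries, pseudocounts of 1 and 10, thresholds of 1.5-fold and 3-fold and a filter on the mean. The functions were tested on simulated data. The tools were Python 3.11.15 with pandas 2.3.3, numpy 2.4.6, matplotlib 3.10.9 and scipy 1.17.1.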

Additional observations from a re-analysis of the deposited data

How the results depend on the processing

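All 9 genes were lower in the library labelled Cxxc1-deficient with the values as deposited, under 4 scalings and with both pseudocounts, and no gene reversed. Their median log2 ratio was -1.45 as deposited. It was -1.41 with medians equalised over genes above 0 in both libraries, -1.06 with 75th percentiles equalised, -0.88 with sums equalised after leaving out the 100 top genes, -0.45 with medians equalised over genes of mean 100 or more, and -1.41 with a pseudocount of 10. These scalings add 0.038, 0.39, 0.56 and 0.997 to every log2 ratio, which is the whole of each move. The 9 genes at least 2-fold lower became 4 with sums equalised, 3 with medians equalised over genes of mean 100 or more and 4 at a threshold of 3-fold. Over all genes, 6.54% and 3.51% were at least 2-fold lower under the first 2 of these. For the related genes, the median log2 ratio of -0.62 became -0.58, -0.23, -0.059 and, reversed, 0.38 under the 4 scalings in the same order, -0.55 with a pseudocount of 10 and -1.44 over the genes of mean 100 or more. Their 18 genes at least 2-fold lower became 10 with sums equalised and 4 with the last scaling, beside the same 6.54% and 3.51% of all genes. At 3-fold they became 10. The share of all genes at 3-fold was not computed, so the counts at 3-fold cannot be set beside the general shift. No paired analysis was possible because there is a single library on each side and no fit was made. Depth is unknown, so the smaller differences among the 9 genes, such as that between *Stag1* and *Stag2*, have no counting interval.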

Other observations

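Across all genes of the level of *Rad21*, *Smc3* and *Ctcf*, the CpG content of the promoter was set beside the ratio, with the largest count among a gene's RefSeq windows. Of the genes with a mean of 300 to 1000, the 30 with 0 to 9 CpG had a median log2 ratio of -1.48, the 41 with 10 to 19 had -1.40, the 93 with 20 to 29 had -1.50 and the 134 with 30 or more had -1.41. The medians of these classes differ by 0.10, while the quartiles within the class of 30 or more were -1.74 and -1.02. Of the genes with a mean of 100 to 300, the median went from -0.87 over 124 genes with 0 to 9 CpG to -1.06 over 559 genes with 30 or more. These are descriptions across genes of the same 2 libraries, and genes are not replicates.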
